A study of Mus musculus with 50 samples.

Results

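The apex of the left ventricle of Tgαq*44 mice was compared with that of FVB mice at 12 months of age, 5 female mice of each strain, which are 10 of the 50 RNA-seq libraries of the series. The members are all libraries titled with these strains and this age, and all genes of the count table were considered. Tgαq*44 mice are FVB mice whose cardiomyocytes overexpress a constitutively active form of the Gαq protein, a condition labelled as heart failure, and the promoter of the transgene is not given in the sources used here. FVB mice are the wild-type strain on the same background, kept on the same chow and light cycle. The other 40 libraries cover both strains at 4, 8, 10 and 14 months and enter here as part of the same statistical model and in the comparison of neighbouring ages.

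Gαq is the G-protein subunit through which α1-adrenergic, angiotensin II and endothelin receptors activate phospholipase C, which releases calcium from internal stores and activates protein kinase C. Long activation of this route in cardiomyocytes leads to hypertrophy and, later, to dilatation and failure. Failing hearts are known to return to genes of the foetal heart, to deposit collagen and to lose genes of fatty acid oxidation, and the genes below are ordered by these roles.

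The libraries of Tgαq*44 mice held 8.77 to 16.9 M counts each and those of FVB mice 12.4 to 16.1 M counts. Levels are given as CPM, counts scaled to the size of the library with TMM factors, and differences as log2 fold changes of Tgαq*44 over FVB mice. Of all genes, 15129 exceeded 0.5 CPM in at least 4 mice of some group and were tested by the quasi-likelihood method of edgeR, with p-values adjusted by Benjamini and Hochberg. Mice are separate animals, so that p-values measure the spread between animals. In FVB mouse 5, 221 genes lay over 2-fold outside the range of the other 4 FVB mice, against 29 to 72 genes in each of these. In Tgαq*44 mouse 3 the number was 235, against 50 to 73 in the other Tgαq*44 mice. For a part of the results, the value without FVB mouse 5 is given beside that with all mice. Counts of list members are mostly given with all mice only, and some of them change without FVB mouse 5. Of 25 immediate early genes, for example, 13 were higher with all mice and 11 without it.

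Gnaq, the mouse gene of Gαq, was higher in Tgαq*44 mice by a small amount. Gnaq was at 32.8, 30.4, 40.2, 28.4 and 28.0 CPM in the 5 Tgαq*44 mice, against 23.6, 24.0, 28.7, 17.3 and 15.0 CPM in the 5 FVB mice. Tgαq*44 mice 1 to 3 were above every FVB mouse, while Tgαq*44 mice 4 and 5 were just below FVB mouse 3, so the groups overlap. The log2 fold change was 0.56 (standard error 0.18, edgeR adjusted p = 0.012), and without FVB mouse 5 it was 0.45 with an adjusted p of 0.052, which does not pass 0.05, and the same was found without Tgαq*44 mouse 3 (0.45, adjusted p = 0.055). Transcripts of the transgene and of the endogenous Gnaq gene cannot be separated in counts per gene.

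At 12 months, 2018 genes were DEGs, that is, past an adjusted p of 0.05 with more than a doubling or halving of the level (log2 fold change beyond 1 or -1). Of these, 1127 were higher in Tgαq*44 mice (7.45% of the genes tested) and 891 were lower (5.89%). By the adjusted p alone, 3278 genes were higher (21.7%) and 3120 were lower (20.6%), and the median log2 fold change of all genes was -0.01. The 5 Tgαq*44 values lay above all 5 FVB values for 2102 genes (13.9%) and below them for 1768 genes (11.7%), and this held for 1647 of the 2018 DEGs. Changes over 4-fold were seen in 453 DEGs, 267 higher and 186 lower. Without FVB mouse 5 there were 2093 DEGs, of which 1908 were shared, or 94.5% of the DEGs of all mice and 91.2% of those without this mouse. Members of gene lists were called by the adjusted p alone, so that 21.7% and 20.6% are the shares to read their counts against.

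**Figure D1:**
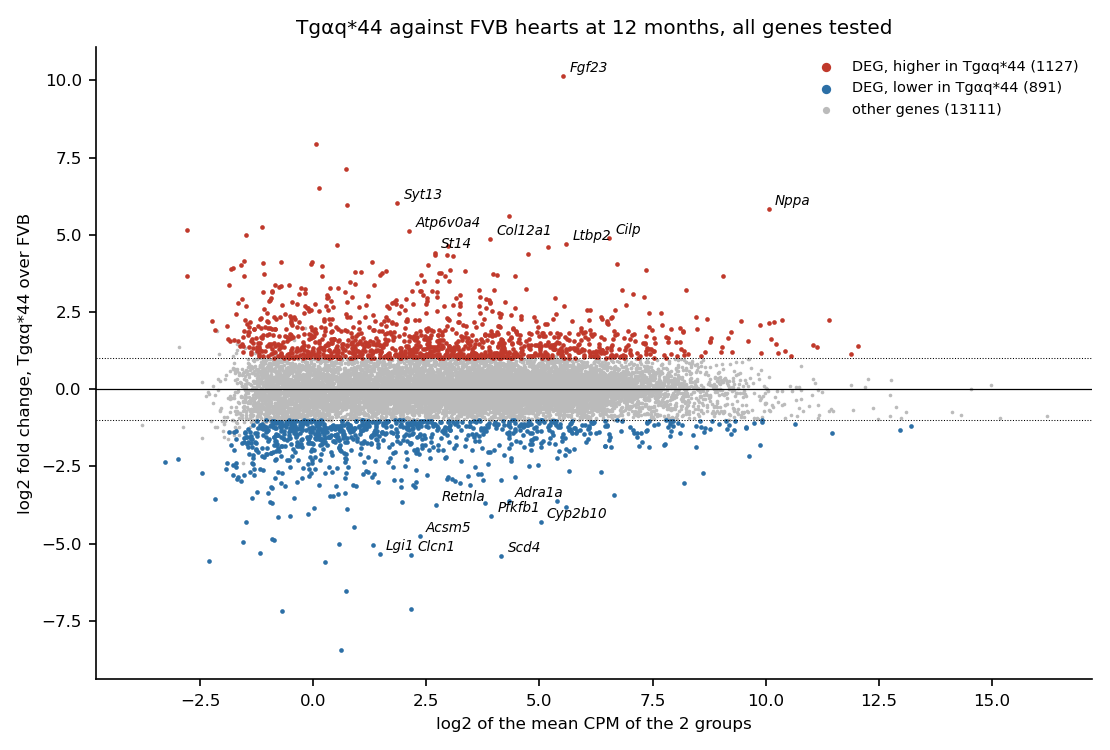
Log2 fold change of Tgαq*44 over FVB mice (vertical axis) against the log2 of the mean CPM of both groups (horizontal axis) for the 15129 genes tested, with the 1127 higher DEGs in red and the 891 lower DEGs in blue. Fgf23 stands at 10.15 and Scd4 at -5.41, and dotted lines mark 1 and -1.

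Among protein-coding genes of at least 5 CPM in the higher group, the largest increase was that of Fgf23, a hormone of bone that lowers blood phosphate. Fgf23 was at 106, 113, 71.6, 77.6 and 94.4 CPM in the 5 Tgαq*44 mice, against 0.0611, 0.0772, 0, 0.131 and 0.0830 CPM in the 5 FVB mice. Every Tgαq*44 mouse was far above every FVB mouse, in which 5 counts were found in all, with at most 2 in a mouse. Fgf23 was 1305-fold higher in normalised counts, with a 95% exact interval of 559- to 4021-fold that covers counting error only. Nppa, the gene of atrial natriuretic peptide, which lowers blood pressure and is made by strained heart muscle, was at 1828, 1059, 1204, 3519.9 and 2920.2 CPM in Tgαq*44 mice, against 24.2, 35.7, 16.9, 45.8 and 63.5 CPM in FVB mice. The lowest Tgαq*44 mouse was 16.7-fold above the highest FVB mouse, and the spread within each strain was wide (log2 fold change 5.82, standard error 0.43, edgeR adjusted p = 5.5e-16).

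Other genes with the largest increases had log2 fold changes between 4.35 for Dok5, an adaptor of receptor tyrosine kinases, and 6.02 for Syt13, a synaptotagmin. Cilp, a matrix protein of cartilage that fibroblasts of the heart also make, was at 132, 164, 222, 165 and 212 CPM in Tgαq*44 mice, against 4.52, 6.64, 6.04, 5.50 and 7.38 CPM in FVB mice. Ltbp2, which binds fibrillin in elastic fibres, was at 95.4, 94.1, 89.8, 87.3 and 96.7 CPM in Tgαq*44 mice, against 3.67, 2.93, 2.29, 3.60 and 5.39 CPM in FVB mice, and the values of each strain lay close together. Col12a1, a collagen that attaches to fibrils, had a log2 fold change of 4.86, and Atp6v0a4, a subunit of the vacuolar proton pump, one of 5.13. Ckmt1, the ubiquitous creatine kinase of mitochondria, stood at 4.64, St14, a serine protease of the cell surface, at 4.43, and Ncam1, a cell adhesion molecule, at 4.39. Lack of overlap between the groups was a condition for naming these genes, and the call of each was the same without FVB mouse 5.

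Among the largest decreases was that of Scd4, a desaturase of fatty acids that is found in heart. It was at 0.647, 0.714, 2.00, 0.413 and 0.387 CPM in Tgαq*44 mice, against 10.9, 37.0, 41.0, 34.5 and 51.0 CPM in FVB mice, with FVB mouse 1 lowest of its strain and still above every Tgαq*44 mouse. Pfkfb1, an enzyme that sets the level of fructose 2,6-bisphosphate and thereby the rate of glycolysis, was at 2.00, 1.62, 0.718, 2.17 and 1.82 CPM in Tgαq*44 mice, against 28.5, 30.3, 40.2, 24.6 and 20.5 CPM in FVB mice (log2 fold change -4.10, standard error 0.22, edgeR adjusted p = 2.5e-20).

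Channels and receptors of the muscle membrane were among the other decreases. Adra1a, the α1A-adrenergic receptor that couples to Gαq, was at 2.76, 2.73, 3.99, 3.41 and 2.43 CPM in Tgαq*44 mice, against 44.4, 43.5, 42.3, 36.0 and 18.8 CPM in FVB mice. FVB mouse 5 was lowest of the FVB mice and 4.72-fold above the highest Tgαq*44 mouse (log2 fold change -3.61, standard error 0.21, edgeR adjusted p = 3.3e-19). Clcn1, the chloride channel of skeletal muscle, had a log2 fold change of -5.37, and Kcnv2, a silent subunit that modifies potassium channels, one of -3.70. Lgi1, a secreted protein known from synapses, stood at -5.34, Acsm5, an activating enzyme of medium-chain fatty acids, at -4.76, Cyp2b10, a cytochrome P450 known as a drug-induced gene of liver, at -4.29, and Ces1d, a carboxylesterase, at -3.63. Efnb3, an ephrin ligand, stood at -3.82 and Retnla, a secreted protein known from alternatively activated macrophages, at -3.76.

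**Figure D2:**
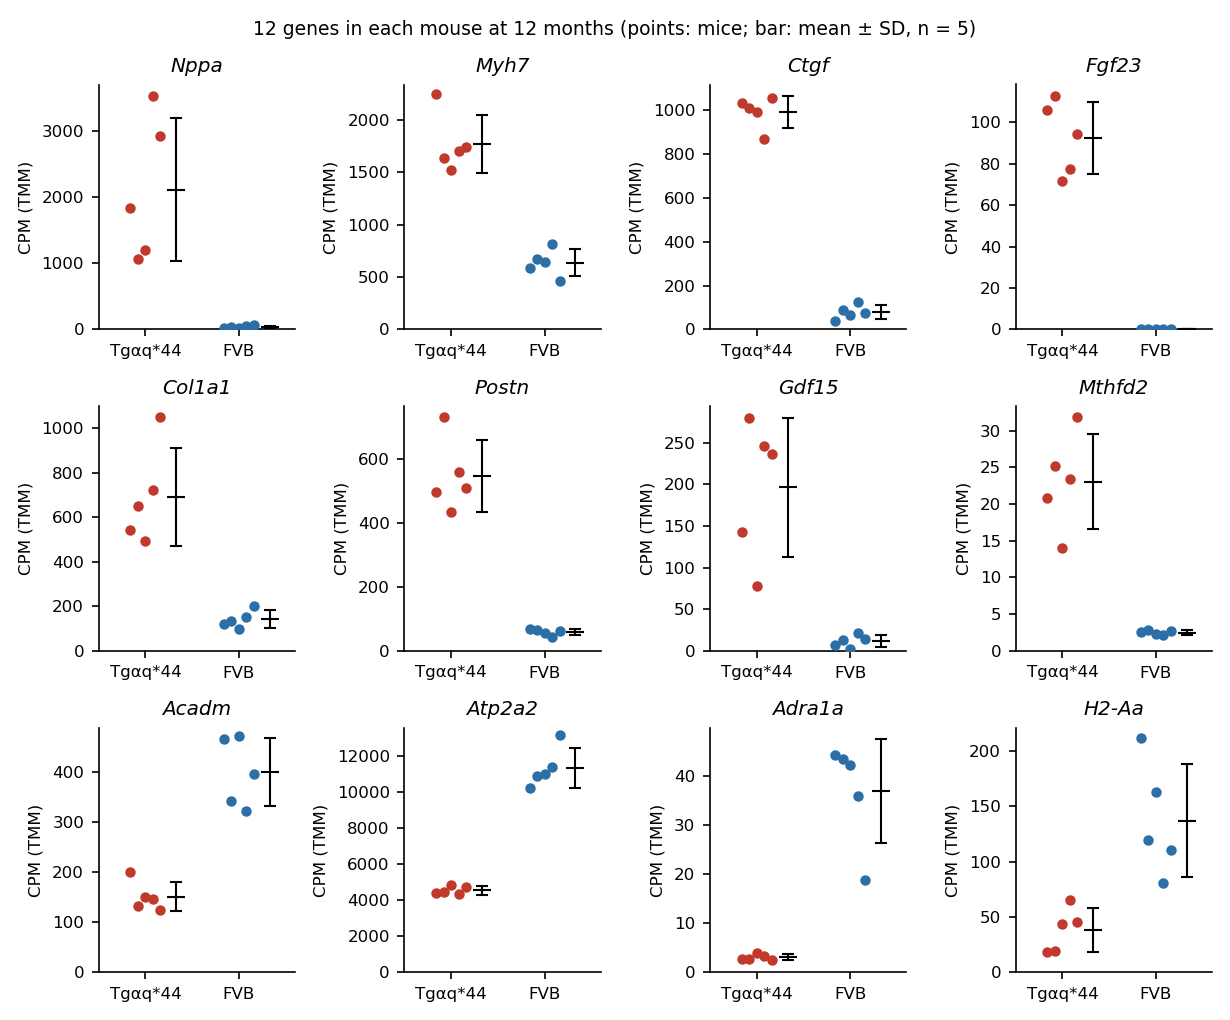
CPM of 12 genes in each of the 5 Tgαq*44 (red, left) and 5 FVB mice (blue, right), with the mean and SD as a bar beside the points. The genes were picked from those given in the text, and the points of the 2 strains do not overlap in any panel. Over all genes tested, the 5 Tgαq*44 values lay above all FVB values in 13.9% and below them in 11.7%.

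Genes of the foetal heart and of the response to stretch were mostly higher in Tgαq*44 mice. Of 16 measured members, 13 were higher and the others did not pass the test, with a median log2 fold change of 1.40 against -0.01 over all genes. Nppb, the gene of brain natriuretic peptide, was at 849.8, 651, 1197, 1042 and 978 CPM in Tgαq*44 mice, against 129, 192, 162, 322 and 503 CPM in FVB mice. FVB mouse 5 was highest of its strain, and all FVB mice were below all Tgαq*44 mice. Ctgf, a matricellular growth factor, was at 1032, 1009, 991, 868 and 1056 CPM in Tgαq*44 mice, against 40.2, 88.2, 65.6, 124 and 72.5 CPM in FVB mice (log2 fold change 3.66, standard error 0.24, edgeR adjusted p = 2.3e-17). The 5 Tgαq*44 mice lay within a narrow range, and the lowest was 6.99-fold above the highest FVB mouse. Rcan1, a feedback inhibitor and target of calcineurin, had a log2 fold change of 1.55, Xirp2, an actin-binding protein of the intercalated disc, one of 2.17, Ankrd1, a stretch-responsive repressor in the nucleus and sarcomere, one of 1.43, and Meox1, a transcription factor of activated fibroblasts, one of 2.22. Myl4, the atrial essential light chain, did not pass (1.09, edgeR adjusted p = 0.089), nor did Acta2, the smooth muscle actin (0.24).

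Myosin and actin isoforms differed in share as well as in level. Myh7, the slow β-myosin heavy chain of the foetal mouse ventricle, was at 2247, 1633, 1521, 1701 and 1742 CPM in Tgαq*44 mice, against 590.4, 672, 645, 818 and 464 CPM in FVB mice. Myh6, the fast α-myosin heavy chain of the adult mouse, was at 6568, 5188, 4487, 6075 and 6512 CPM in Tgαq*44 mice, against 12562, 12827, 12842, 15957 and 11891 CPM in FVB mice. Myh7 was thus higher and Myh6 lower in every Tgαq*44 mouse than in any FVB mouse. Per length of exons, Myh7 made up 21.1, 19.7, 20.9, 17.9 and 17.3% of both myosins in Tgαq*44 mice, against 3.54, 3.93, 3.77, 3.85 and 2.96% in FVB mice. The means were 19.4 ± 1.72% in Tgαq*44 and 3.61 ± 0.393% in FVB mice (SD, n = 5 each, exact two-sided permutation test, p = 0.00794, adjusted p = 0.0159 over 10 such shares), where 0.00794 is the smallest p that 5 against 5 mice can give.

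The skeletal actin Acta1 was at 2509, 2385, 3578, 2947 and 4815 CPM in Tgαq*44 mice, against 845, 1048, 534, 1073 and 2826 CPM in FVB mice. FVB mouse 5 was above 2 of the Tgαq*44 mice, and the log2 fold change was 1.36 with it and 1.89 without it. The share of Acta1 among Acta1 and Actc1, the cardiac actin, was 9.00 ± 1.70% in Tgαq*44 and 3.92 ± 1.58% in FVB mice without overlap (SD, n = 5 each, exact permutation test, adjusted p = 0.0159). The shares of Tnni1, the foetal troponin I, among Tnni1 and Tnni3 (0.00920 ± 0.00374% in Tgαq*44 and 0.00431 ± 0.00408% in FVB mice) and of Myl7, an atrial light chain, among Myl7 and Myl2 (0.0851 ± 0.0332% in Tgαq*44 and 0.0571 ± 0.0246% in FVB mice) did not pass (SD, n = 5 each, exact permutation tests, adjusted p = 0.147 and 0.203). With mice of the same number as pairs, the share of Myl7 was higher in Tgαq*44 mice in 5 of 5 pairs and that of Tnni1 in 4 (exact paired permutation tests, p = 0.0625 and 0.125), where 0.0625 is the smallest p that 5 pairs allow. Both were a small part of their pair in every mouse.

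**Figure D3:**
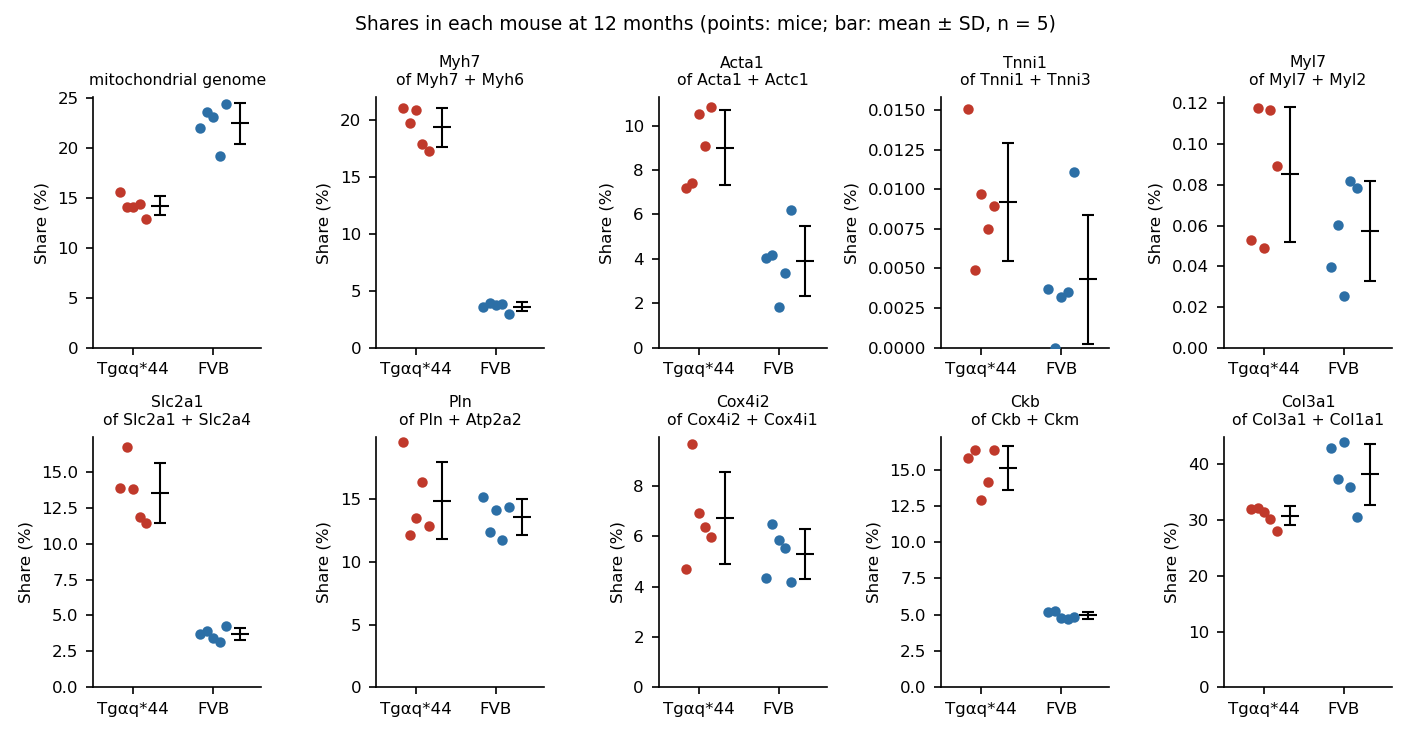
Shares in percent for each of the 5 Tgαq*44 (red, left) and 5 FVB mice (blue, right), namely the share of all counts on the mitochondrial genome and 9 shares of 1 gene in a pair per exon length, with mean and SD as a bar. The strains do not overlap in the mitochondrial, Myh7, Acta1, Slc2a1 and Ckb panels.

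Promoters of foetal genes are shown because the muscle CAT element (MCAT, CATTCC on either strand), a known site of TEAD factors, was first described in such genes. RefSeq windows of 300 bases, from 250 before to 50 after a transcription start in GRCm38.p6, matched 11 of the 16 measured members with 14 windows. MCAT was found in 6 of the 14 windows (42.9%), against 4817 of 32851 windows of all genes (14.7%), 14.2% of the windows of higher DEGs and 15.5% of those of lower DEGs. The windows with a match were those of Nppb, Acta1, Runx1, Myh7, Acta2 and Ankrd1, of which Acta2 did not pass the test. Below are Acta1 (chr8:123894726-123895025, minus strand), Ankrd1 (chr19:36119795-36120094, minus strand), Nppb (chr4:147985650-147985949, plus strand) and Myh7 (chr14:54994577-54994876, minus strand), 5′ to 3′, with MCAT in capitals and, in Acta1, also the CArG box, the site of serum response factor.
Acta1: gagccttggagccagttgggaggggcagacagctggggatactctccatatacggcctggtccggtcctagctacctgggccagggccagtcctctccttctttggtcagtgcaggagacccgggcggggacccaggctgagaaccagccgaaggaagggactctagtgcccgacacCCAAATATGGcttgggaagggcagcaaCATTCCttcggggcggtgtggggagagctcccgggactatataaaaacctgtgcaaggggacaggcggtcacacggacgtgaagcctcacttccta
Ankrd1: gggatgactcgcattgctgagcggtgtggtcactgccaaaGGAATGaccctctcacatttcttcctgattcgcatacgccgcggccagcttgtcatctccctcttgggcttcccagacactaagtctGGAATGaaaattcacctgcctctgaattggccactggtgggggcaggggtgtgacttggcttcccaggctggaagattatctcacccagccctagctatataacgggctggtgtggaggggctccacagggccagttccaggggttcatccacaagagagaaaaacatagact
Nppb: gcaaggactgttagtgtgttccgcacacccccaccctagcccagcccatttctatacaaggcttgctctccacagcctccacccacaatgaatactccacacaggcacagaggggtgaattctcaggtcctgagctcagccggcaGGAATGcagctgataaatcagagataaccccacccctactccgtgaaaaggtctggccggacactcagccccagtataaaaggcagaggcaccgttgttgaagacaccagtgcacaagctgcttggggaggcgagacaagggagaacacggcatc
Myh7: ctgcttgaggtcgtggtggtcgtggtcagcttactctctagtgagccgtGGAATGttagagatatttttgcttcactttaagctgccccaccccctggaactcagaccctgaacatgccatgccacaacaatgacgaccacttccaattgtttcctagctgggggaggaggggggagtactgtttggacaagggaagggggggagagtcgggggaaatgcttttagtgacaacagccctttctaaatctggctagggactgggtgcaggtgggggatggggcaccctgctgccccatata
The match nearest to the start was that of Acta1, 46 bases before it, with the CArG box 73 bases before it. Ankrd1 held 2 matches, 210 and 123 bases before the start. A match of 6 letters is frequent by itself, as the share over all windows shows, and binding was not measured.

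Almost all measured genes of the collagen matrix were higher in Tgαq*44 mice. Of 18 fibrillar and interstitial collagens, 16 were higher and 1 was lower (Col6a6, -0.71), with a median of 1.82. Col1a1, the main chain of type I collagen, was at 544, 652, 495, 722 and 1053 CPM in Tgαq*44 mice, against 121, 133, 97.5, 153 and 203 CPM in FVB mice. Col3a1, the chain of the thinner type III fibres, was at 379.6, 461, 339, 466 and 611 CPM in Tgαq*44 mice, against 137, 118, 114, 128 and 133 CPM in FVB mice. Every Tgαq*44 mouse was above every FVB mouse in both, and the log2 fold changes were 2.29 ± 0.29 and 1.84 ± 0.26 (± standard error, edgeR adjusted p = 5.7e-09 and 8.3e-08). Per exon length, Col3a1 was, as a share of both, 30.7 ± 1.70% in Tgαq*44 and 38.1 ± 5.50% in FVB mice (SD, n = 5 each, exact permutation test, adjusted p = 0.0529), a difference of -7.42 percentage points that passed without FVB mouse 5 (-9.32, adjusted p = 0.0132).

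Fibroblast markers moved with the matrix genes. All 11 measured fibroblast markers were higher, with a summed level of 5786 to 7782 CPM in Tgαq*44 mice against 2545 to 2927 CPM in FVB mice, and 8 of 11 markers of activated fibroblasts were higher (1202 to 1514 CPM in Tgαq*44 against 274 to 518 CPM in FVB mice). Both lists hold matrix genes themselves. Tcf21, a transcription factor of cardiac fibroblasts that is no matrix gene, had a log2 fold change of 0.86, and Pdgfra, their receptor for platelet-derived growth factor, one of 0.90. In bulk tissue, more cells of a type and more RNA per cell cannot be told apart, and the part of the number of fibroblasts in these differences was not tested.

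Matricellular proteins and proteoglycans, which bind the fibres and signal to cells, followed the collagens. Of 44 members, 38 were higher and 1 was lower (Ltbp1, -0.33, not past the test without FVB mouse 1 or 3), with a median of 1.67. Postn, periostin of activated fibroblasts, was at 496, 731, 433, 559.8 and 510.4 CPM in Tgαq*44 mice, against 67.2, 66.0, 56.2, 44.5 and 62.1 CPM in FVB mice (log2 fold change 3.20, standard error 0.22, edgeR adjusted p = 9.1e-17). The lowest Tgαq*44 mouse was 6.44-fold above the highest FVB mouse. Mfap4, a microfibril protein, had a log2 fold change of 3.85, Wisp2, a matricellular protein of the Ctgf family, one of 3.84, Comp, a pentameric protein of cartilage and tendon, one of 3.77, Fmod, a proteoglycan that binds collagen fibrils, one of 3.71, and Thbs4, a thrombospondin, one of 2.71. Spp1, osteopontin, was near 1 CPM in both strains and did not pass (0.71, edgeR adjusted p = 0.21).

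Genes that mature collagen, and both proteases of the matrix and their inhibitors, were among those that changed. Of 25 genes of collagen processing and crosslinking, 21 were higher and 1 was lower (Adamts3, a procollagen N-protease, -1.72). Lox, lysyl oxidase, which crosslinks collagen and elastin, was at 10.5, 10.5, 15.2, 7.54 and 5.20 CPM in Tgαq*44 mice, against 1.41, 1.47, 0.816, 2.36 and 0.996 CPM in FVB mice, without overlap. Of 37 matrix proteases and inhibitors, 24 were higher and 3 were lower. Among the proteases, Mmp2, a gelatinase (1.94), Mmp14, which activates it at the cell surface (1.26), and Ctsk, a lysosomal collagenase (1.75), were higher, and Mmp15, of the cell membrane, was lower (-0.70). Timp1, an inhibitor of metalloproteinases, was at 34.9, 51.2, 26.1, 38.0 and 54.0 CPM in Tgαq*44 mice, against 2.02, 2.93, 3.35, 3.01 and 4.81 CPM in FVB mice (log2 fold change 3.68, standard error 0.30, edgeR adjusted p = 2e-14). The related inhibitor Timp2 was higher (1.53), and Timp4 did not pass (-0.70). Mmp13, a collagenase, was the member with the largest decrease, with 5 counts in the Tgαq*44 libraries against 68 in the FVB libraries (ratio 0.0697, 95% exact interval 0.0219 to 0.171). Of 21 basement membrane genes, 15 were higher and 1 was lower (Lamb3, -1.26).

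Of 39 members of the TGF-β superfamily, which drives fibroblasts to make matrix, 26 were higher and 1 was lower, with a median of 0.75. Among the ligands, Tgfb2 was at 270.4, 274, 402, 231 and 223 CPM in Tgαq*44 mice, against 29.3, 39.3, 24.2, 35.1 and 48.2 CPM in FVB mice. The lowest Tgαq*44 mouse was 4.64-fold above the highest FVB mouse (log2 fold change 2.99, standard error 0.15, edgeR adjusted p = 2.9e-21), while Tgfb1 had a log2 fold change of 1.07 and Tgfb3 one of 1.99. Gdf15, a stress-induced cytokine that reduces appetite, was at 143, 279.5, 78.0, 246 and 237 CPM in Tgαq*44 mice, against 6.84, 13.3, 2.29, 21.6 and 14.8 CPM in FVB mice, with Tgαq*44 mouse 3 lowest of its strain. Bmp7, a ligand that opposes TGF-β in kidney, was the member that fell (log2 fold change -2.35, standard error 0.28, edgeR adjusted p = 1.7e-09). The receptors Tgfbr1 (1.18) and Tgfbr2 (1.10) were higher, as was the inhibitory Smad7 (0.66).

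Of 34 Wnt genes, 16 were higher and 2 were lower. The increases were led by secreted Wnt inhibitors and receptors, with Sfrp2 at 3.51, Dkk3 at 2.84, Frzb at 2.43 and the receptor Fzd1 at 1.73, while Sfrp5 was at -2.04. Of 24 integrin genes, 14 were higher and 2 were lower. Itgb6, a chain of the integrin that activates latent TGF-β on epithelia, was at 1.88, 3.18, 3.51, 3.30 and 3.70 CPM in Tgαq*44 mice, against 34.5, 23.7, 29.9, 15.8 and 16.3 CPM in FVB mice, the largest decrease of that list.

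**Figure D4:**
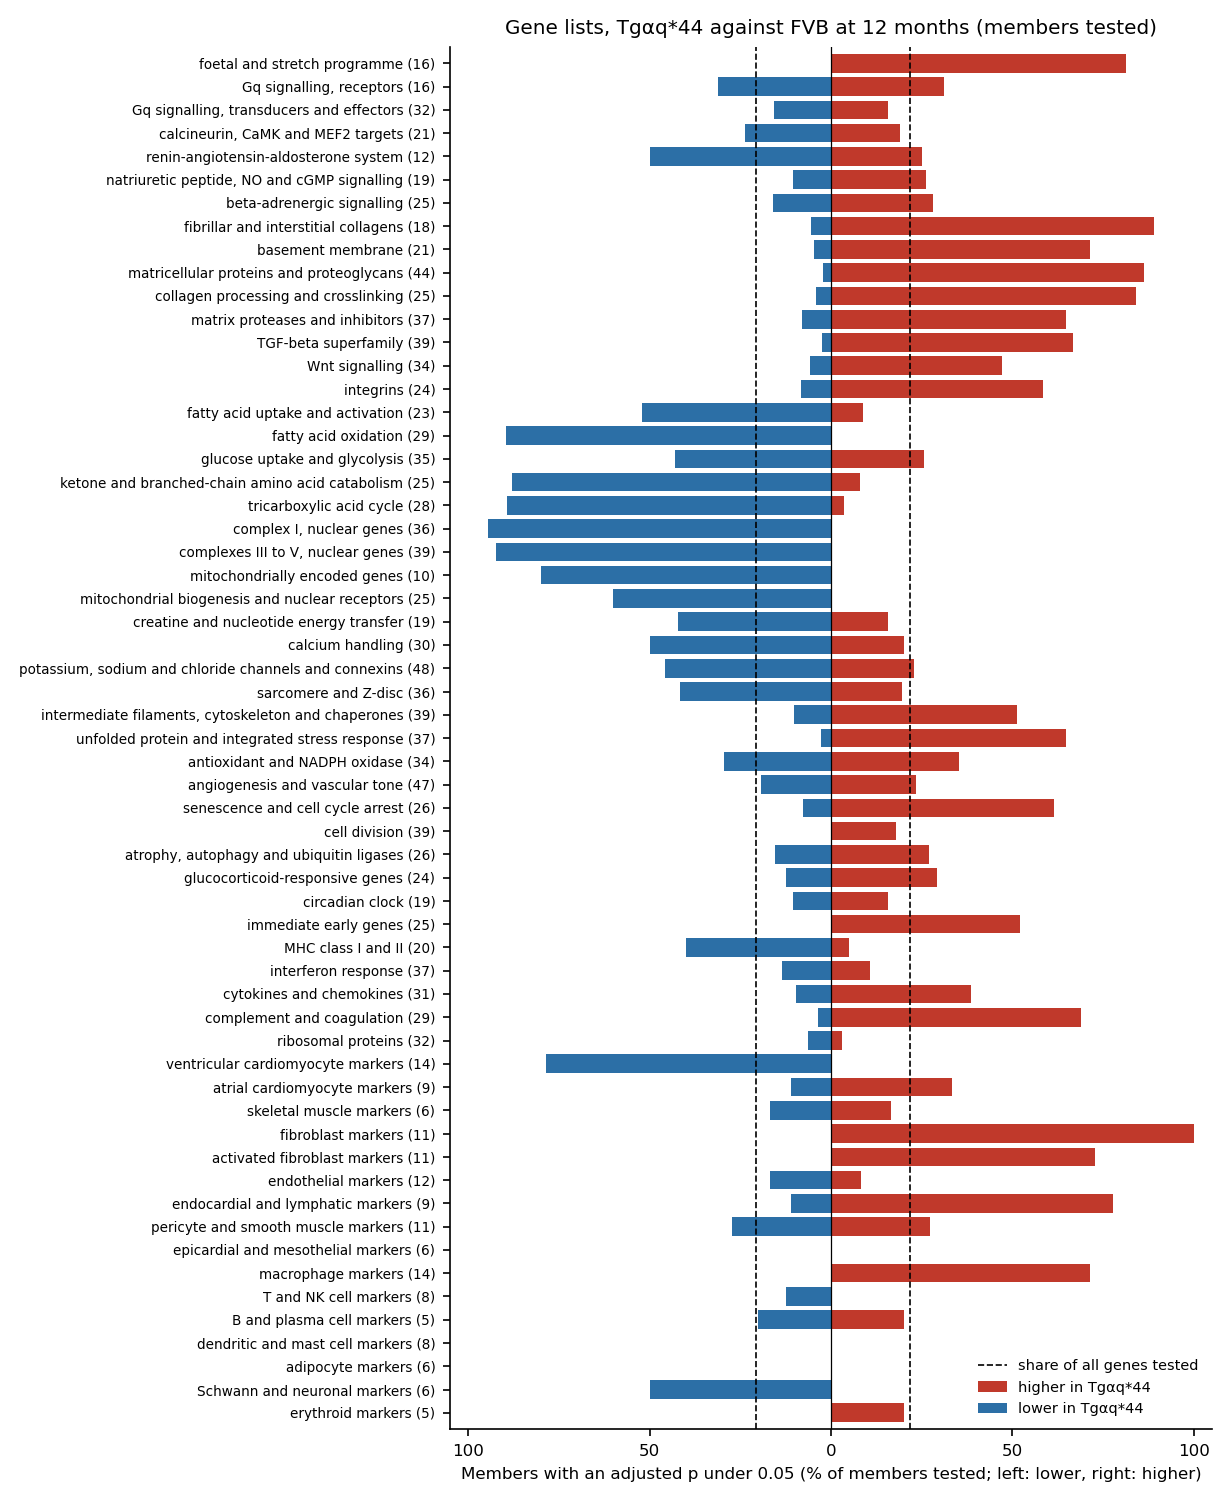
Share of the measured members of each gene list called higher (red, right) or lower (blue, left) in Tgαq*44 than in FVB mice, with the number of members in brackets and dashed lines at the shares of all genes tested, 21.7% and 20.6%. Matrix and fibroblast lists lie to the right, and lists of fatty acid oxidation, the tricarboxylic acid cycle and the respiratory chain to the left.

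Genes that burn fatty acids, the main fuel of the adult heart, were lower in Tgαq*44 mice. Of 29 genes of fatty acid oxidation, 26 were lower and the others did not pass, with a median of -1.03. Acadm, the medium-chain acyl-CoA dehydrogenase, was at 199.8, 134, 152, 146 and 126 CPM in Tgαq*44 mice, against 466, 343, 472, 323 and 397 CPM in FVB mice. Acaa2, the thiolase of the last step, was at 147, 116, 189, 134 and 173 CPM in Tgαq*44 mice, against 562, 523, 612, 540.0 and 545 CPM in FVB mice (log2 fold change -1.87, standard error 0.12, edgeR adjusted p = 1.2e-17). The groups were apart for both, with every Tgαq*44 mouse below every FVB mouse. Eci1, which handles unsaturated fatty acids, had a log2 fold change of -1.80, Hadha, a subunit of the trifunctional protein, one of -1.46, and Cpt2, an enzyme of carnitine-dependent import, one of -1.37. Cpt1b, the muscle enzyme of that import, was near 1 CPM and shares its place in the genome with a neighbouring gene, so that its value (-0.53, not past the test) is uncertain.

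Of 23 genes of fatty acid uptake and activation, 12 were lower and 2 were higher. Lpl, which frees fatty acids from lipoproteins, was at 1660.5, 1575, 1645, 1559 and 1254 CPM in Tgαq*44 mice, against 4039, 3717, 4127, 4264 and 4384 CPM in FVB mice, a log2 fold change of -1.42. Fabp3, the fatty acid binding protein of heart, stood at -1.47 and Dgat2, which makes triglycerides, at -1.86. Of 25 genes of ketone and branched-chain amino acid breakdown, 22 were lower and 2 were higher. Dbt, a subunit of the branched-chain ketoacid dehydrogenase, was at -1.86 and Bdh1, which oxidises β-hydroxybutyrate, at -1.78, whereas Bcat1, the cytosolic branched-chain transaminase, was higher (log2 fold change 2.29, standard error 0.29, edgeR adjusted p = 7.8e-09).

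The glucose list was split. Of 35 genes, 9 were higher and 15 were lower (11 and 13 without FVB mouse 5). Slc2a1, the insulin-independent transporter GLUT1, was at 48.4, 56.9, 55.9, 48.4 and 52.2 CPM in Tgαq*44 mice, against 17.4, 20.1, 16.5, 19.7 and 23.2 CPM in FVB mice. Slc2a4, the insulin-dependent GLUT4, was at 299, 281, 346, 358 and 400.0 CPM in Tgαq*44 mice, against 445, 489.5, 456, 599 and 515 CPM in FVB mice. Per exon length, Slc2a1 made up 13.5 ± 2.09% of both in Tgαq*44 and 3.71 ± 0.428% in FVB mice, without overlap (SD, n = 5 each, exact permutation test, adjusted p = 0.0159). Among the enzymes, the isoforms Eno2 (2.18), Pfkp (1.25) and Hk1 (0.70) were higher, and the muscle isoforms Eno3 (-1.01), Pfkm (-0.56) and Hk2 (-0.41) were lower.

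In the mitochondria, nuclear genes of the respiratory chain fell by similar amounts. Of 28 genes of the tricarboxylic acid cycle, 25 were lower and 1 was higher (Me2, a malic enzyme, 0.46). Of 36 nuclear genes of complex I, 34 were lower, and of 39 of complexes III to V, 36, with medians of -0.75 and -0.74. Of these genes, 4 and 5 were DEGs, since most fell by less than 1 on the log2 scale. Ndufs1, the largest subunit of complex I, was at 143, 126, 109, 103 and 95.2 CPM in Tgαq*44 mice, against 284, 236, 297, 208 and 256 CPM in FVB mice. The highest Tgαq*44 mouse was below the lowest FVB mouse (log2 fold change -1.15, standard error 0.15, edgeR adjusted p = 1.3e-08).

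Counts on the mitochondrial genome were 15.6, 14.2, 14.1, 14.4 and 12.9% of all counts in Tgαq*44 mice, against 22.1, 23.6, 23.1, 19.2 and 24.5% in FVB mice. The groups did not overlap (14.3 ± 0.964% in Tgαq*44 against 22.5 ± 2.04% in FVB mice, SD, n = 5 each, exact permutation test, adjusted p = 0.0159). Of 10 measured protein genes of the mitochondrial genome, 8 were lower, among them mt-Nd1, a core subunit of complex I (log2 fold change -0.93, standard error 0.14, edgeR adjusted p = 2.4e-07). With these genes left out of the scaling, 2088 genes were DEGs.

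Regulators of mitochondrial genes were lower in part. Of 25, 15 were lower and the others did not pass. Ppargc1a, the coactivator PGC-1α, was at 32.1, 24.0, 32.0, 32.9 and 16.0 CPM in Tgαq*44 mice, against 62.6, 52.7, 54.3, 54.6 and 45.7 CPM in FVB mice, without overlap. Ppara, the receptor that senses fatty acids, was at 21.3, 25.1, 22.4, 21.4 and 11.4 CPM in Tgαq*44 mice, against 53.2, 42.1, 43.6, 53.4 and 14.7 CPM in FVB mice. FVB mouse 5 lay among the Tgαq*44 mice, apart from the other 4 FVB mice, and the log2 fold change was -1.03 with it and -1.25 without it. Esrrg, an orphan receptor of oxidative metabolism, stood at -1.23 and Rxrg, a retinoid X receptor of muscle, at -1.39. Pparg (-0.01) and Nrf1, which activates nuclear genes of the respiratory chain, did not pass.

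Creatine kinases differed in isoform. Ckb, the brain isoform, made up 15.1 ± 1.52% of Ckb and Ckm, the muscle isoform, in Tgαq*44 mice, against 4.96 ± 0.231% in FVB mice (SD, n = 5 each, exact permutation test, adjusted p = 0.0159). Ckmt2, the mitochondrial isoform of muscle, was at 694, 618, 538, 614 and 613 CPM in Tgαq*44 mice, against 1305, 1125, 1321, 1129 and 1149 CPM in FVB mice, while Ckmt1 was higher, as given above. Of the uncoupling proteins, Ucp3 was lower (log2 fold change -2.85, standard error 0.34, edgeR adjusted p = 1.6e-09) and Ucp2 higher (log2 fold change 1.29, standard error 0.18, edgeR adjusted p = 5.2e-08).

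Markers of ventricular cardiomyocytes were lower in sum, 60283 to 75183 CPM in Tgαq*44 against 75138 to 97013 CPM in FVB mice, ranges that overlap by a single mouse on each side, and 11 of 14 passed. Actc1 (0.15), Actn2 (-0.04) and Mybpc3 (-0.02), all of the cardiomyocyte sarcomere, were near 0 and did not pass. How much of the fall in metabolic and contractile genes goes with the share of cardiomyocytes was not tested.

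Calcium handling genes were lower more often than higher. Of 30, 15 were lower and 6 were higher. Atp2a2, the pump SERCA2 that returns calcium to the sarcoplasmic reticulum, was at 4387, 4449, 4883, 4331 and 4724 CPM in Tgαq*44 mice, against 10241, 10912, 11044, 11436 and 13167 CPM in FVB mice. The nearest mice of the strains were 2.10-fold apart (log2 fold change -1.32, standard error 0.09, edgeR adjusted p = 1.1e-17). Pln, phospholamban, the brake of this pump, was lower too (log2 fold change -1.16, standard error 0.15, edgeR adjusted p = 1.8e-08), and its share of Pln and Atp2a2 was 14.8 ± 3.07% in Tgαq*44 and 13.5 ± 1.45% in FVB mice (SD, n = 5 each, exact permutation test, adjusted p = 0.452). Ryr2, the calcium release channel, had a log2 fold change of -1.08, Hrc, a calcium-binding protein of the reticulum, one of -1.25, Slc8a1, the sodium-calcium exchanger, one of -0.90, and Cacna1c, the L-type channel, one of -0.55.

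Of 48 potassium, sodium and chloride channels and connexins, 22 were lower and 11 were higher. Hcn4, a pacemaker channel, was at 1.18, 0.649, 0.559, 1.24 and 1.66 CPM in Tgαq*44 mice, against 9.41, 7.64, 9.31, 8.71 and 8.13 CPM in FVB mice, without overlap. Kcnj3 (-2.32), of the acetylcholine-activated channel, Kcnd2 (-1.48) and Kcnip2 (-1.21), of the transient outward current, and Kcnj2 (-1.25), of the inward rectifier, were lower. Scn4b, a sodium channel subunit, was also lower (-1.83). Kcnj14, an inward rectifier, was higher (log2 fold change 3.43, standard error 0.28, edgeR adjusted p = 2.1e-14). Gja1, the main connexin of the ventricle, did not pass (-0.11).

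In the sarcomere list of 36 genes, 15 were lower and 7 were higher. Fhl2, a LIM protein of the sarcomere, was at 306, 214, 360.2, 245 and 321 CPM in Tgαq*44 mice, against 1045, 1183, 1235, 1262 and 1717 CPM in FVB mice, with the nearest mice of the strains 2.90-fold apart. Mylk4, a kinase of the myosin light chain family, had a log2 fold change of -3.04. Of 39 genes of the cytoskeleton and its chaperones, 20 were higher and 4 were lower. Des, desmin, the intermediate filament of muscle, was at 5636, 5388, 7718, 5788 and 6048 CPM in Tgαq*44 mice, against 1765, 2185, 1685, 3060.1 and 2863 CPM in FVB mice (log2 fold change 1.40, standard error 0.15, edgeR adjusted p = 4.4e-11). Krt18, a keratin of epithelia, was at 14.1, 15.2, 17.4, 15.7 and 14.0 CPM in Tgαq*44 mice, against 0.611, 1.23, 0.571, 1.70 and 1.08 CPM in FVB mice, also without overlap, and several tubulins were higher, such as Tubb3 (3.28) and Tubb2a (1.20).

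Receptors that signal through Gαq changed in both directions. Of 16, 5 were higher and 5 were lower. Besides Adra1a, the lower ones were Adra1b (log2 fold change -1.77, standard error 0.17, edgeR adjusted p = 6.5e-12), the angiotensin receptor Agtr1a (log2 fold change -1.67, standard error 0.18, edgeR adjusted p = 4e-11), the vasopressin receptor Avpr1a (-1.93) and the endothelin receptor Ednra (-0.64). The higher ones were S1pr2, Lpar1, F2r, F2rl1 and P2ry6, receptors for sphingosine 1-phosphate, lysophosphatidic acid, thrombin, trypsin-like proteases and UDP, with log2 fold changes from 0.62 for P2ry6, which did not pass without Tgαq*44 mouse 5, to 1.35 for S1pr2. Of 32 transducers and effectors, 5 were higher and 5 were lower. Rgs2, which shuts off Gαq, was lower (log2 fold change -1.19, standard error 0.26, edgeR adjusted p = 0.00022), and Plcb1 (-0.31) and Plcb3 (0.25), phospholipases that Gαq activates, did not pass.

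Of 21 genes of calcineurin, CaM kinase and MEF2, 4 were higher and 5 were lower, with Nfatc4 at 1.18 and Mef2a at -0.71. Of 25 genes of β-adrenergic signalling, 7 were higher and 4 were lower, near the shares of all genes. Adrb1, the main β-receptor of the heart, did not pass (-0.45, edgeR adjusted p = 0.12). Of 12 genes of the renin-angiotensin system, 3 were higher and 6 were lower. Ace, angiotensin-converting enzyme, was at 338, 348, 308, 364 and 343 CPM in Tgαq*44 mice, against 61.5, 80.7, 65.7, 97.1 and 100.2 CPM in FVB mice, with the nearest mice 3.07-fold apart (log2 fold change 2.07, standard error 0.17, edgeR adjusted p = 2.8e-14). Mme, neprilysin, which breaks down natriuretic peptides and angiotensins, was at 2.59, 2.21, 1.52, 1.34 and 1.38 CPM in Tgαq*44 mice, against 15.5, 14.4, 17.8, 8.84 and 11.9 CPM in FVB mice. Nr3c2, the mineralocorticoid receptor, was lower as well (-1.07).

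Genes of the integrated stress response, by which cells limit protein synthesis and make amino acids when mitochondria or protein folding fail, were mostly higher. Of 37 members of the unfolded protein and integrated stress response, 24 were higher and 1 was lower (Vldlr, -0.74), with a median of 0.78. Mthfd2, an enzyme of mitochondrial folate metabolism, was at 20.8, 25.1, 14.0, 23.3 and 31.9 CPM in Tgαq*44 mice, against 2.57, 2.86, 2.29, 2.16 and 2.66 CPM in FVB mice (log2 fold change 3.20, standard error 0.24, edgeR adjusted p = 7.6e-16). Chac1, which breaks down glutathione, was at 13.8, 19.7, 12.4, 15.5 and 19.9 CPM in Tgαq*44 mice, against 1.71, 3.16, 1.39, 2.29 and 4.15 CPM in FVB mice. The strains did not overlap for either gene. The serine synthesis enzyme Phgdh (2.70), asparagine synthetase Asns (2.46) and the pseudokinase Trib3 (1.65) were higher.

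The chaperones of the endoplasmic reticulum Hspa5 (-0.13) and Hsp90b1 (-0.19) did not pass, nor did the transcription factors Atf4 (0.31) and Ddit3 (-0.08). Fgf21, a hormone of fasting and mitochondrial stress, was low, at 0.529, 2.14, 0.160, 1.65 and 4.87 CPM in Tgαq*44 mice, against 0, 0.154, 0.0816, 0.131 and 0.166 CPM in FVB mice, with Tgαq*44 mouse 3 below FVB mouse 5. It held 148 counts in the Tgαq*44 and 7 in the FVB libraries, a 20.0-fold difference with a 95% exact interval of 9.48 to 50.7. Tgαq*44 mouse 5 held 88 of the 148 counts, and without it the ratio was 10.8 (4.94 to 28.0).

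The amino acid response element (TGATGCAA on either strand), a known site of ATF4 and its partners, is shown in this list because several of its genes are known targets of ATF4. RefSeq windows matched 34 of the 37 members with 38 windows. The element was found in 8 of these windows (21.1%), against 294 of 32851 windows of all genes (0.895%), 1.57% of the windows of higher DEGs and 0.732% of those of lower DEGs. The 8 genes were Atf3, Chac1, Slc7a11, Fgf21, Nupr1 and Pycr1, which were higher, Vldlr, which was lower, and Herpud1, which did not pass (-0.30). Below are Fgf21 (chr7:45615441-45615740, minus strand), Chac1 (chr2:119350992-119351291, plus strand), Nupr1 (chr7:126625421-126625720, minus strand) and Slc7a11 (chr3:50443564-50443863, minus strand), 5′ to 3′ from RefSeq GRCm38.p6, with the element in capitals.
Fgf21: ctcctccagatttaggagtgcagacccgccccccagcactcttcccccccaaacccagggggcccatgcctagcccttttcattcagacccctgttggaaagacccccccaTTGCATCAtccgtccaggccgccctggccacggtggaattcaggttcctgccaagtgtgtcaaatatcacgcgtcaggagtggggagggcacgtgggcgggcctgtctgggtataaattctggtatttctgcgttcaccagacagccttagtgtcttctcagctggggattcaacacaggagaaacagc
Chac1: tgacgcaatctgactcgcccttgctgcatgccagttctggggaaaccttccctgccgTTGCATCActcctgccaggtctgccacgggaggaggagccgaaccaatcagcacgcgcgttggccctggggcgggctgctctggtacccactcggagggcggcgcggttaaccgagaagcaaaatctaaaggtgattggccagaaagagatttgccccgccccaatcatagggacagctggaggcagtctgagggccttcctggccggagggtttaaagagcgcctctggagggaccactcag
Nupr1: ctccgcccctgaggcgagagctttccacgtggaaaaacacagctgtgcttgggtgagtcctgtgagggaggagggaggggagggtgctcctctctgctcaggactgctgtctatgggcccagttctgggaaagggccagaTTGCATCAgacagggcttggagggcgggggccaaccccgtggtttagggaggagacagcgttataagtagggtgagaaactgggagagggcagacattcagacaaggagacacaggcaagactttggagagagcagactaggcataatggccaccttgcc
Slc7a11: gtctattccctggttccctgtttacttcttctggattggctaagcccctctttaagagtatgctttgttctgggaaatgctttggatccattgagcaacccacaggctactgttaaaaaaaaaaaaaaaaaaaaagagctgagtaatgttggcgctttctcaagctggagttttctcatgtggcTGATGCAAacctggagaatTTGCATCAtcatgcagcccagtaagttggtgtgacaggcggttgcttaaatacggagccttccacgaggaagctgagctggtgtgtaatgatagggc
The element lay 139, 193 and 110 bases before the start of Fgf21, Chac1 and Nupr1, and Slc7a11 held it on both strands, 66 and 47 bases before the start. Nupr1, a stress-induced chromatin protein, was at 17.9, 14.2, 5.75, 15.0 and 11.9 CPM in Tgαq*44 mice, against 2.26, 1.85, 2.94, 2.95 and 3.07 CPM in FVB mice, and Slc7a11, the cystine transporter, at 2.29, 1.82, 2.08, 3.82 and 4.31 CPM in Tgαq*44 mice, against 0.794, 1.39, 0.327, 0.982 and 1.16 CPM in FVB mice. Both were higher in each Tgαq*44 mouse than in any FVB mouse. The elements searched besides MCAT, CArG and this one, on both strands, were those of GATA factors (AGATAA), of estrogen-related receptors (TCAAGGTCA), of AP-1 (TGANTCA), of EGR factors (GCGTGGGCG) and of NRF1, and binding of a factor was not measured.

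Immediate early genes, which respond to signals and to handling of tissue within minutes, were higher in 13 of 25 cases and the others did not pass. Egr2, a zinc finger factor, was at 6.76, 4.80, 16.6, 6.19 and 12.6 CPM in Tgαq*44 mice, against 0.489, 1.47, 0.735, 1.44 and 0.996 CPM in FVB mice (log2 fold change 3.19, standard error 0.42, edgeR adjusted p = 1.8e-08). Fos stood at 1.71, Egr1 at 1.42 and Atf3 at 1.86. Of 26 genes of senescence and cell cycle arrest, 16 were higher and 2 were lower. Cdkn1a, the inhibitor p21, was at 87.5, 162, 70.5, 94.4 and 91.1 CPM in Tgαq*44 mice, against 24.3, 43.4, 29.5, 71.4 and 51.5 CPM in FVB mice, with FVB mouse 4 just above Tgαq*44 mouse 3. Of 39 genes of cell division, 7 were higher and 0 were lower, both below the shares of all genes, with Mki67 at 0.09. The number higher was 3 without FVB mouse 4 or 5 and 4 without Tgαq*44 mouse 2 or 5.

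Of 34 antioxidant and NADPH oxidase genes, 12 were higher and 10 were lower. Nox4, an oxidase that makes hydrogen peroxide, was at 17.4, 20.8, 20.5, 18.7 and 7.69 CPM in Tgαq*44 mice, against 2.32, 2.47, 1.88, 1.77 and 1.83 CPM in FVB mice, with Tgαq*44 mouse 5 lowest of its strain and 3.11-fold above the highest FVB mouse. Gpx3, a secreted glutathione peroxidase, was higher (log2 fold change 2.26, standard error 0.19, edgeR adjusted p = 4e-14), while Sod2, the superoxide dismutase of mitochondria, was lower (-1.01), as was Maob, a monoamine oxidase of the outer mitochondrial membrane (-1.78).

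Genes of antigen presentation by MHC class II were lower in Tgαq*44 mice. H2-Aa, a chain of class II, was at 18.0, 19.2, 44.1, 65.6 and 45.5 CPM in Tgαq*44 mice, against 211, 119.9, 163, 81.1 and 111 CPM in FVB mice. Cd74, the invariant chain, was at 25.4, 28.8, 45.3, 85.6 and 57.6 CPM in Tgαq*44 mice, against 187, 124, 156, 95.8 and 136 CPM in FVB mice. Tgαq*44 mouse 4 was highest of its strain in both, and the strains did not overlap (log2 fold changes -1.84 and -1.53, edgeR adjusted p = 1.2e-05 and 3.7e-05). Of 20 class I and II genes, 8 were lower and 1 was higher (Tapbp, 0.50, not past the test without FVB mouse 3 or Tgαq*44 mouse 5). H2-Aa and Cd74 were the only 2 of the 20 with all Tgαq*44 values below all FVB values, which held for 11.7% of all genes. Ciita, the master regulator of class II, had a log2 fold change of -1.36 with FVB mouse 5 and -1.60 without it, since this mouse was below every Tgαq*44 mouse. The class I genes H2-Q6, H2-Q7 and H2-Q4, whose reads can be split between near-identical copies, were lower too.

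Macrophage markers moved the other way. Of 14, 10 were higher, with a sum of 499 to 653 CPM in Tgαq*44 against 335 to 365 CPM in FVB mice. Dendritic and mast cell markers summed to 9.90 to 15.0 CPM in Tgαq*44 against 11.8 to 15.3 CPM in FVB mice, T and NK cell markers to 4.02 to 7.02 CPM in Tgαq*44 against 4.45 to 8.05 CPM in FVB mice, and B and plasma cell markers to 2.47 to 4.96 CPM in Tgαq*44 against 4.32 to 7.10 CPM in FVB mice. These sums are small beside that of the macrophages, and their part in the class II result was not tested.

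Of 37 interferon response genes, 4 were higher and 5 were lower, both below the shares of all genes. The higher ones were Ifi27l2a (1.35), Oasl2 (0.72), Ifit2 (0.60) and Irf8 (0.42). The lower ones were Igtp, Irgm2, Iigp1 and Gbp4, GTPases induced by interferon γ, and Cxcl9, a chemokine induced by it. Igtp was at 6.11, 5.00, 6.94, 11.6 and 5.25 CPM in Tgαq*44 mice, against 63.7, 17.0, 50.0, 8.90 and 10.4 CPM in FVB mice. FVB mice 1 and 3 were far above the other FVB mice, of which mice 4 and 5 were below Tgαq*44 mouse 4, and the call was lost under limma-voom (adjusted p = 0.0502). Iigp1 lost its call under limma-voom and without FVB mouse 1, Irgm2 without FVB mouse 1, and Gbp4, Ifit2 and Irf8 in several settings. Of 31 cytokines and chemokines, 12 were higher and 3 were lower. Ccl6 (2.10) and Ccl9 (2.28), chemokines of myeloid cells, and Il33 (1.59), an alarmin, were higher, and Ctf1, cardiotrophin, was lower (log2 fold change -1.86, standard error 0.17, edgeR adjusted p = 9.2e-13). Of 29 genes of complement and coagulation, 20 were higher and 1 was lower (Cd59a, -0.74), with C7, of the terminal complex, at 2.91.

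Endothelial markers were near balance, with 1 of 12 higher and 2 lower and a sum of 1990.4 to 2206 CPM in Tgαq*44 against 1938 to 2527 CPM in FVB mice. Of 9 endocardial and lymphatic markers, 7 were higher and 1 was lower (Prox1, -0.83). Vwf, von Willebrand factor, was higher (log2 fold change 1.27, standard error 0.18, edgeR adjusted p = 1.4e-07), as was Lyve1, a marker of lymphatic endothelium and resident macrophages. Of 47 genes of angiogenesis and vascular tone, 11 were higher and 9 were lower. Angpt1, which stabilises vessels, was at 3.35, 1.62, 3.11, 3.20 and 1.82 CPM in Tgαq*44 mice, against 8.62, 6.10, 12.2, 5.43 and 7.72 CPM in FVB mice, without overlap, and Vegfa (-0.71) and its receptor Kdr (-0.67) were lower. Edn3, an endothelin, was higher (log2 fold change 1.96, standard error 0.20, edgeR adjusted p = 1.1e-11), and Nos3, the endothelial nitric oxide synthase, did not pass (0.02).

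Some lists had few members called or stood near the shares of all genes (21.7% higher and 20.6% lower). Of those given above, angiogenesis and vascular tone, β-adrenergic signalling and the list of calcineurin, CaM kinase and MEF2 stood near these shares. The transducers and effectors of Gαq, the interferon response genes and the genes of cell division stood below them. Of 32 ribosomal proteins, 1 was higher and 2 were lower, and of 19 clock genes 3 and 2. Of 24 glucocorticoid-responsive genes, 7 were higher and 3 were lower, with Fkbp5, which binds the receptor of these hormones, at 1.49 and Klf15, a factor that glucocorticoids induce in muscle, at -0.72. Of 26 genes of atrophy and autophagy, 7 were higher and 4 were lower. Natriuretic peptide, NO and cGMP signalling had 5 of 19 higher and 2 lower. Of 9 measured atrial markers, 3 were higher (Bmp10, Nr2f2 and Dkk3) and 1 was lower (Stard10), with a sum of 92.9 to 104 CPM in Tgαq*44 against 63.4 to 80.3 CPM in FVB mice. Nppa is no member of this list, Myl7 and Sln were below the filter, and the part of atrial tissue in the level of Nppa was not tested.

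The strain difference at 12 months was set against that at the neighbouring ages, by testing the difference of the log2 fold changes in the same model. It differed from that at 10 months in 191 genes (1.26%), 106 with a larger and 85 with a smaller value at 12 months, and in 318 genes with the mouse number as a block. It differed from that at 14 months in 193 genes (1.28%), 131 larger and 62 smaller at 14 months, and in 384 with the block. Both tests share the 12-month mice. Without FVB mouse 5, the numbers were 229 and 570 genes, and the 193 genes were all among the 570. The first number was 122 without FVB mouse 1, 123 without FVB mouse 3 and 104 without Tgαq*44 mouse 1. The second was 95, 102, 85 and 118 without FVB mouse 1, 2, 3 or 4.

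Several matrix genes and chemokines had a smaller strain difference at 14 than at 12 months. Ctgf averaged 593 ± 126, 991 ± 73.2 and 827 ± 83.4 CPM in Tgαq*44 mice at 10, 12 and 14 months, against 146 ± 55.8, 78.2 ± 31.0 and 205 ± 64.8 CPM in FVB mice (SD, n = 5 each). Its strain difference at 14 minus that at 12 months was -1.65 on the log2 scale (edgeR adjusted p = 0.0028). Timp1 averaged 40.0 ± 20.3, 40.8 ± 11.6 and 16.6 ± 4.11 CPM in Tgαq*44 mice, against 2.90 ± 0.821, 3.22 ± 1.02 and 3.98 ± 0.820 CPM in FVB mice. Ccl6 averaged 20.7 ± 4.01, 58.3 ± 21.5 and 22.3 ± 7.23 CPM in Tgαq*44 mice, against 13.2 ± 2.87, 13.6 ± 1.67 and 15.8 ± 3.78 CPM in FVB mice. Among 10, 12 and 14 months, Ctgf and Ccl6 were highest in Tgαq*44 mice at 12 months. Timp1 was at similar means at 10 and 12 months and lower at 14 months. In FVB mice, the mean of Ctgf was lowest at 12 and highest at 14 months of these ages, so its change also holds a rise in FVB mice. The change of the strain difference of Timp1 did not pass under limma-voom (adjusted p = 0.0664). Itgb6, the integrin chain given above, averaged 11.0 ± 2.70, 3.12 ± 0.719 and 8.24 ± 2.09 CPM in Tgαq*44 mice, against 15.8 ± 3.28, 24.0 ± 8.22 and 19.7 ± 5.22 CPM in FVB mice. Its strain difference changed by -2.43 from 10 to 12 and by 1.71 from 12 to 14 months on the log2 scale (edgeR adjusted p = 5.3e-05 and 0.0059).

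In other genes, too, the level in FVB mice differed between ages. Nt5c1a, an AMP nucleotidase of muscle, averaged 1.51 ± 0.708, 8.65 ± 1.92 and 5.54 ± 2.78 CPM in Tgαq*44 mice at 10, 12 and 14 months, against 2.79 ± 2.13, 20.3 ± 9.95 and 1.76 ± 0.504 CPM in FVB mice. Carmn, a long non-coding RNA of smooth muscle and heart, averaged 1.78 ± 0.201, 3.92 ± 0.616 and 3.13 ± 0.726 CPM in Tgαq*44 mice, against 2.30 ± 0.501, 6.24 ± 2.95 and 1.47 ± 0.223 CPM in FVB mice. Cyp26b1, which breaks down retinoic acid, averaged 4.50 ± 1.59, 11.7 ± 5.74 and 5.75 ± 1.59 CPM in Tgαq*44 mice, against 64.7 ± 44.4, 8.72 ± 10.8 and 5.68 ± 2.11 CPM in FVB mice. Of these 3 ages, Nt5c1a and Carmn were highest in FVB mice at 12 months, and Cyp26b1 at 10 months. At 4 months, FVB mice were at 25.0 to 33.7 CPM of Nt5c1a and 3.93 to 8.50 CPM of Carmn, so 12 months was not above every other age. Their changes of the strain difference were 2.91 and 1.77 from 12 to 14 months and 4.29 from 10 to 12 months (edgeR adjusted p = 0.0028, 0.0063 and 0.0002). Under limma-voom, those of Nt5c1a (adjusted p = 0.0559) and Carmn (0.0763) did not pass.

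**Figure D5:**
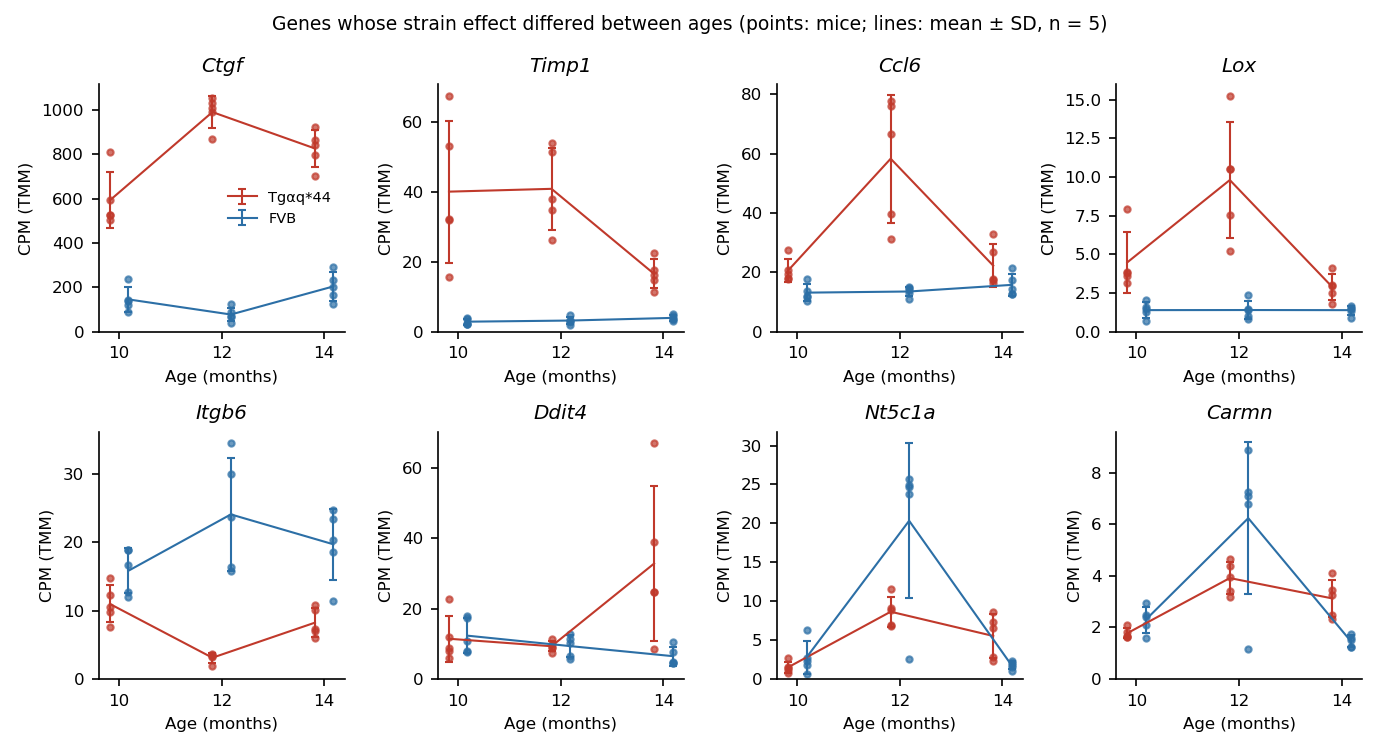
CPM of 8 genes whose strain difference at 12 months differed from that at 10 or 14 months, at 10, 12 and 14 months of age (horizontal axis), in Tgαq*44 (red) and FVB mice (blue), with points for the 5 mice of each group and lines through means with SD. Among these 3 ages, Ctgf, Ccl6 and Lox peak at 12 months in Tgαq*44 mice. Nt5c1a and Carmn do so in FVB mice, in which mouse 5 of 12 months is low.

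FVB mouse 5 differed from the other 4 FVB mice of 12 months mainly by lower values, in 196 of the 221 genes that lay over 2-fold outside their range. In Nt5c1a it was at 2.57 CPM, against 23.8 to 25.7 CPM in the other 4. In Hipk2, a nuclear kinase, it was at 48.2 CPM against 199 to 220.2 CPM, and in Gpam, which starts triglyceride synthesis, at 69.1 CPM against 222 to 287 CPM. In the other direction, Cyp26b1 was at 28.0 CPM in this mouse against 3.73 to 4.16 CPM, and Nr1d1, a clock repressor, at 232 CPM against 56.3 to 86.5 CPM. In 117 of the 221 genes this mouse lay inside the range of the 10 FVB mice of 10 and 14 months, and in 77 of them the other 4 were all outside it. At least 1 of the other 4 lay inside this range in 125 genes. Against the FVB mice of 4 months, mouse 5 lay inside the range in 30 of the 221 genes, at least 1 of the other 4 in 195 and all of them in 65. Against those of 8 months these numbers were 34, 158 and 52. The range of 10 and 14 months pools 10 mice, while those of 4 and 8 months hold 5 mice each. A pooled range can take in more genes for that reason alone, so these numbers are not directly comparable. Sequencing was split over several runs, but neither labels nor methods tie a library to its run or date, so that a run cannot be told apart from age or from this mouse. Of the 2018 DEGs, 110 were lost and 185 were gained without FVB mouse 5 (4 of the lost ones no longer passed the filter on low counts and no tested one changed sign), and 60 of its 221 genes were DEGs with all mice.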

How the data were processed

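RNA-seq counts of the left ventricular apex of 10 female mice of 12 months were analysed in 1 model with the other 40 libraries. The deposited values are raw counts per gene, which the authors obtained from polyA libraries with Cutadapt for trimming, FastQC for quality, STAR for alignment to GRCm38.p6 and HTSeq for counting over exons. Neither versions nor the strand option of HTSeq are known here, so that overlapping and antisense genes are uncertain. Deposited columns of the authors' own comparisons (log2 fold changes, p-values and over-represented processes) were not used. Of 54532 identifiers, 54409 matched GENCODE.

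Models were fitted in edgeR 4.0.16 under R 4.3.3, alternatives used DESeq2 1.42.0 or limma 3.58.1, and Python 3.11.15 with matplotlib 3.10.9 and pandas 2.3.3 made tables and plots. Genes exceeding 0.5 CPM in at least 4 mice of some group were fitted with TMM factors in 10 groups of strain and age by edgeR's quasi-likelihood test, with standard errors computed from F and the log2 fold change. Shares per mouse used exact two-sided permutation tests, adjusted over 10 shares. Steps were tested on simulated data. No 2 libraries agreed within sampling noise (chi-square per degree of freedom between 9.15 and 68.5). Mice carry the numbers of the sample titles. Deviations from the group means of mice with the same number correlated by 0.118 to 0.193 in all 5 pairs and 4 Tgαq*44 mice correlated best with their own number, while Tgαq*44 mouse 5 correlated more with FVB mouse 4 (0.318), so by the rule of over 0.1 in every pair the numbers were taken as pairs in an alternative with the mouse number as a block.

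Named genes are Gnaq, the 12 protein-coding DEGs per direction with the largest change, no overlap and at least 5 CPM in the higher group, members of the lists by role, the 6 genes per direction with the largest difference between ages, and the 8 per direction that deviated most in FVB mouse 5, of which some are given here. Some named genes are not reported here. The comparison and the 60 gene lists, of which some share genes, were chosen with earlier results of these data known, so lists are described by counts and medians and not tested. Promoter windows are RefSeq windows of GRCm38.p6. Intervals of ratios of counts cover counting error only. The alternatives tried were DESeq2, limma-voom, size factors by median of ratios, filterByExpr, no filter, no mitochondrial genes, protein-coding genes only, the mouse number as block, only 12-month-old mice, glmTreat, no fold minimum and each mouse left out.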

Additional observations from a re-analysis of the deposited data

Results flagged for a closer look

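Of 118 groups of 5 mice tested for a single mouse apart from the others, which are the genes and shares given per mouse, 10 had one, and chance flags about 1 in 20 groups. In Tgαq*44 mice, mouse 3 stood apart in Scd4 (2.00 CPM), Tgfb2 (402 CPM) and Des (7718 CPM), mouse 5 in Lpl (1254 CPM), Ppara (11.4 CPM) and Nox4 (7.69 CPM), mouse 1 in Itgb6 (1.88 CPM) and mouse 2 in Cdkn1a (162 CPM). In FVB mice, mouse 4 stood apart in Myh6 (15957 CPM) and mouse 5 in Acta1 (2826 CPM).

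The strain difference of 12 genes at 12 months differed from that at 10 months by the test of the difference itself, and the values are those at 12 minus those at 10 months on the log2 scale. It was smaller or more negative at 12 months in Itgb6 (-2.43), Spon2 (-2.25), Tfrc, the transferrin receptor (-1.90), the clock genes Npas2 (-1.74) and Arntl (-1.60), and Rtn4r, a receptor of the nervous system (-1.68). It was larger in Cyp26b1 (4.29), Gm45819 (2.29), Pou3f1 (2.25), Lgi2 (2.23), Spock2 (1.73) and Dusp4, a phosphatase of MAP kinases (1.72). Means of Tfrc and Arntl in Tgαq*44 mice went from above to below those of FVB mice, and Npas2 to about equal. Those of Cyp26b1, Gm45819 and Spock2 went from below to above. Without FVB mouse 5, Tfrc (edgeR adjusted p = 0.058) and Rtn4r (0.061) did not pass.

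From 12 to 14 months, the strain difference became smaller in Lox (-1.70), Ctgf (-1.65), Timp1 (-1.61), Ccl6 (-1.61), Ccl9 (-1.49) and Lrrc25 (-1.42). It became larger or less negative in Nt5c1a (2.91), 4632404M16Rik (2.73), Ddit4, an inhibitor of mTOR (2.33), Gm10524 (2.10), Carmn (1.77) and Itgb6 (1.71).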

How the results depend on the processing

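The 2018 DEGs stayed within 1.5 times under limma-voom, DESeq2, other size factors, both other filters, without mitochondrial genes, with protein-coding genes only, with the mouse number as block (2016) and with only 12-month-old mice. A test against the fold minimum itself (glmTreat) called 787 genes, and no minimum called 6398 (3278 higher and 3120 lower in Tgαq*44 mice), as each setting is built to do. Leaving out a mouse gave 1913 to 2101 DEGs (1061 to 1175 higher, 833 to 956 lower). The strain difference changed from 10 to 12 months in 299 genes by DESeq2, 318 with the block and 104 to 282 with a mouse left out. It changed from 12 to 14 months in 341 genes by DESeq2, 384 with the block and 85 to 570 with a mouse left out, and the cause of these shifts was not tested. Under limma-voom, 7 of the 24 named differences between ages did not pass, which were those of Pou3f1, Timp1, Ccl9, Nt5c1a, 4632404M16Rik, Ddit4 and Carmn. Members of all lists numbered 400 to 423 higher and 335 to 350 lower with a mouse left out, and no list count of 10 or more moved by over 1.5 times in any of these settings.

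With a mouse left out, the Tgαq*44 minus FVB difference of the share of Tnni1 was 0.00343 to 0.00659 percentage points (passing without FVB mouse 5, exact permutation test, adjusted p = 0.0227) and that of Col3a1 -9.32 to -5.95. With mice of the same number as pairs, an alternative chosen after seeing the data, no share could pass, since 5 pairs allow no exact p below 0.0625. The differences were -8.23 (mitochondrial genes), 15.8 (Myh7), 5.08 (Acta1), 9.82 (Slc2a1) and 10.2 percentage points (Ckb), each in 1 direction in 5 of 5 pairs (adjusted p = 0.0781). Of the called named genes, Gnaq, Ltbp1, P2ry6, Tapbp and the interferon response genes Igtp, Iigp1, Irgm2, Gbp4, Ifit2 and Irf8 lost the call in some setting, Igtp under limma-voom (adjusted p = 0.0502), and none changed sign. At 8.77 to 16.9 M counts per library, genes of low level, such as Mmp13 and Fgf21, rest on few counts per mouse.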

Other observations

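Genes of non-coding biotypes were lower in Tgαq*44 mice more often than protein-coding genes. Of 107 lincRNA DEGs among 380 tested, 24 were higher and 83 lower (77.6% lower), and of 86 antisense DEGs among 338, 25 were higher and 61 lower (70.9%), while of 1660 protein-coding DEGs 1045 were higher and 615 lower (37.0%). The difference between biotypes itself was not tested. Summed lincRNA levels were 2192 to 2500 CPM in Tgαq*44 mice, against 2663 to 2898 CPM in FVB mice 1 to 4 and 2389 CPM in FVB mouse 5, so that this mouse lay within the range of Tgαq*44 mice. Antisense genes are uncertain, since it is not known whether counting used strand.

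Some genes were singled out after their values were seen. The lincRNA 4833412C05Rik was at 34.7 to 44.2 CPM in Tgαq*44 mice, against 0.611 to 1.33 CPM in FVB mice (log2 fold change 5.60). Mhrt, a non-coding RNA antisense to Myh7, had a log2 fold change of -1.02, while Myh7 was higher. In Tgαq*44 mouse 3, mt-Rnr2, a mitochondrial ribosomal RNA, was at 20354 CPM, against 2549 to 3530 CPM in the other Tgαq*44 mice, and its log2 fold change was -0.18 with this mouse and -1.32 without it.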
